A study of Mus musculus with 2 samples.

Results

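The gene-dense flank from Lmo2 to Hipk3 is 1.25 Mb of mouse chromosome 2 (mm9 chr2:103500000-104749999), at the edge of the segment that was tiled around Pax6. Its members were chosen by position alone, as the fixed 1 kb windows of this interval with at least 3 array probes. There were 1094 such windows of 14947 on the whole array, out of 1250 possible in the interval, and 11396 of 170542 probes lay in it. The windows held binding data for Rad21, a subunit of cohesin, from chromatin immunoprecipitation on a tiling array (ChIP-chip) of 60 bp probes at a median spacing of 60 bp.

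All data came from RAG cells, a line from a renal adenocarcinoma of a BALB/c mouse that the study used as its Pax6-OFF line. The only group holds 2 arrays, replicates 1 and 2, each from its own flask of formaldehyde-fixed cells. ChIP DNA from a Rad21 antibody and input DNA were whole-genome amplified, reamplified, and hybridised together, with no dye swap. No untreated, control-antibody or other cell line arrays were compared here, and the line's identity could not be read from a DNA assay. An SD given with a value is the spread between 2 arrays.

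Cohesin is a ring-shaped complex that holds DNA strands together and extrudes chromatin into loops. Extrusion tends to stop where the zinc finger protein CTCF is bound, so cohesin in mammalian cells accumulates at many CTCF sites, and Rad21 marks these positions. The flank holds genes with roles in RNA handling (Nat10, Caprin1, Cstf3), ubiquitin ligation and BTB proteins (Fbxo3, Abtb2), complement inhibition (Cd59a, Cd59b), blood lineage regulation (Lmo2) and kinase signalling (Hipk3).

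Values are log2 ratios of Cy3 over Cy5, with each array's median set to 0. The labels put input in Cy3 and ChIP DNA in Cy5, so this ratio runs opposite to the labelled direction. The study's methods state these dyes with its NimbleGen arrays and name none for the Agilent arrays used here. The log2 values deposited by the authors run as Cy3 over Cy5 too, with a Pearson r of 0.932 on both arrays against a running median of that ratio across probes. Channels are therefore named by dye, and no statement of enrichment in the ChIP channel is drawn. The flank was well measured, with 93.5% of its probes well above background in both channels of both arrays. Its median spot signals were 50.6 (replicate 1) and 64.5 (replicate 2) times the local background in Cy3, and 21.4 and 25.3 times in Cy5. Only 192 flank probes were saturated in any channel.

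Regions of consecutive high probes were called from a running median over both arrays, and 25 regions higher in Cy3 had their summit in the flank. The stretches below show DNA near the summits of the strongest of them. Each is 60 bases of the mm9 reference around the best match to the CTCF core consensus, a motif of 12 bases searched on both strands up to 500 bp from the summit, allowing 1 mismatch. Capitals mark the match, and the strand is the one on which it reads. The stretches are listed by the height of the region. Those at Hipk3 and between Caprin1 and Lmo2 lie past the edge of the called region.
Hipk3 intron (mm9 chr2:104285556-104285615, plus strand): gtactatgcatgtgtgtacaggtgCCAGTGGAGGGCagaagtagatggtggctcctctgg
Ccdc73 intron (mm9 chr2:104728192-104728251, plus strand): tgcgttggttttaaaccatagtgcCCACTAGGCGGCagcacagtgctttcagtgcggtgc
4931422A03Rik intron, past the end of Lmo2 (mm9 chr2:103822551-103822610, minus strand): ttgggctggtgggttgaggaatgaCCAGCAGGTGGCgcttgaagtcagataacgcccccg
between D430041D05Rik and Hipk3 (mm9 chr2:104262542-104262601, minus strand): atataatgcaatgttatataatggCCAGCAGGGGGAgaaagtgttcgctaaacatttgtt
Fbxo3 intron (mm9 chr2:103875156-103875215, plus strand): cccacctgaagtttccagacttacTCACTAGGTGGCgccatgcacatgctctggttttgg
between A930018P22Rik and D430041D05Rik (mm9 chr2:103974749-103974808, plus strand): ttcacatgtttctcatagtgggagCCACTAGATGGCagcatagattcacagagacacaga
between Abtb2 and Nat10 (mm9 chr2:103559239-103559298, minus strand): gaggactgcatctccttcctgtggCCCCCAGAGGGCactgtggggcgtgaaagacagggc
between Caprin1 and Lmo2 (mm9 chr2:103713426-103713485, plus strand): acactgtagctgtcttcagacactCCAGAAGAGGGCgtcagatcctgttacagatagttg

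The strongest region without such a match lay in an intron of Tcp11l1, and the next one called on both arrays alone between Depdc7 and Qser1. The 121 bases around their summits are shown for comparison, in lower case because no core was found there. The fewest mismatches to the core within 500 bp were 2 at Tcp11l1 and 3 at the other.
Tcp11l1 intron (mm9 chr2:104526410-104526530, plus strand): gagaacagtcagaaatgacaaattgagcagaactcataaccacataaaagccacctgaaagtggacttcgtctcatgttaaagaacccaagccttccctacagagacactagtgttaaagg
between Depdc7 and Qser1 (mm9 chr2:104592392-104592512, plus strand): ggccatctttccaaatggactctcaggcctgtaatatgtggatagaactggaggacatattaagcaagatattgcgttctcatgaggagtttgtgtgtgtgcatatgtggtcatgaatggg

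The Cd59 genes, a tandem pair whose products block the terminal attack complex of complement, each carried a region in an intron near the start. Their stretches are shown because they are the same base for base, a comparison made after the values were seen.
Cd59b intron (mm9 chr2:103910964-103911023, plus strand): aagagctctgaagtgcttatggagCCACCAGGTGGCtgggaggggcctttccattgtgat
Cd59a intron (mm9 chr2:103936972-103937031, plus strand): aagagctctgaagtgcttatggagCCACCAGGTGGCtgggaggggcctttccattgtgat

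The first comparison asked how many windows departed from the centre of the arrays, and where. In the flank, 70 of 1094 windows were higher in Cy3 and 36 were higher in Cy5 at an adjusted p under 0.05 (limma, Benjamini-Hochberg over all windows of the array). That is 6.40% on the Cy3 side, beside 3.86% of all tiled windows, and 3.29% on the Cy5 side, beside 5.86%. At an unadjusted p under 0.05 the counts were 147 and 129. Over the 2323 windows of the rest of the chromosome 2 segment, 2.28% were higher in Cy3 and 11.6% in Cy5. The median window there was -0.18 on replicate 1 and -0.12 on replicate 2, below the centre that the test used. In the flank it was 0.0049 and 0.0102. Median GC content was 39.5% there and 42.8% in the flank. The shares therefore also carry this offset, and they stand side by side as descriptions, since neighbouring windows are not independent.

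The sides also differed in size. On the Cy3 side the median of the called windows was 0.70, and 17 of them passed 1 log2 unit on the mean of the arrays. Those higher in Cy5 had a median of -0.50, and none of the 36 passed 1 log2 unit in that direction. The whole array showed a like difference, with medians of 0.71 and -0.5 on the Cy3 and Cy5 sides. There 169 of 577 windows higher in Cy3 and 5 of 876 higher in Cy5 passed 1 log2 unit. Of the called windows of the flank, 66.0% were on the Cy3 side. That split depended on the scaling, and was 42.1% with arrays centred on the mode of their ratios, 92.6% after normexp background correction, 93.6% after loess and 95.8% with a trend on GC content removed. The Cy3 count itself stayed between 50 and 96 under every alternative run on it, while the Cy5 count ranged from 0 to 84. Some alternatives changed the number of windows tested. The windows called on the Cy5 side had a median GC content of 33.8%, against 43.8% on the Cy3 side and 42.8% over the flank.

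**Figure D1:**
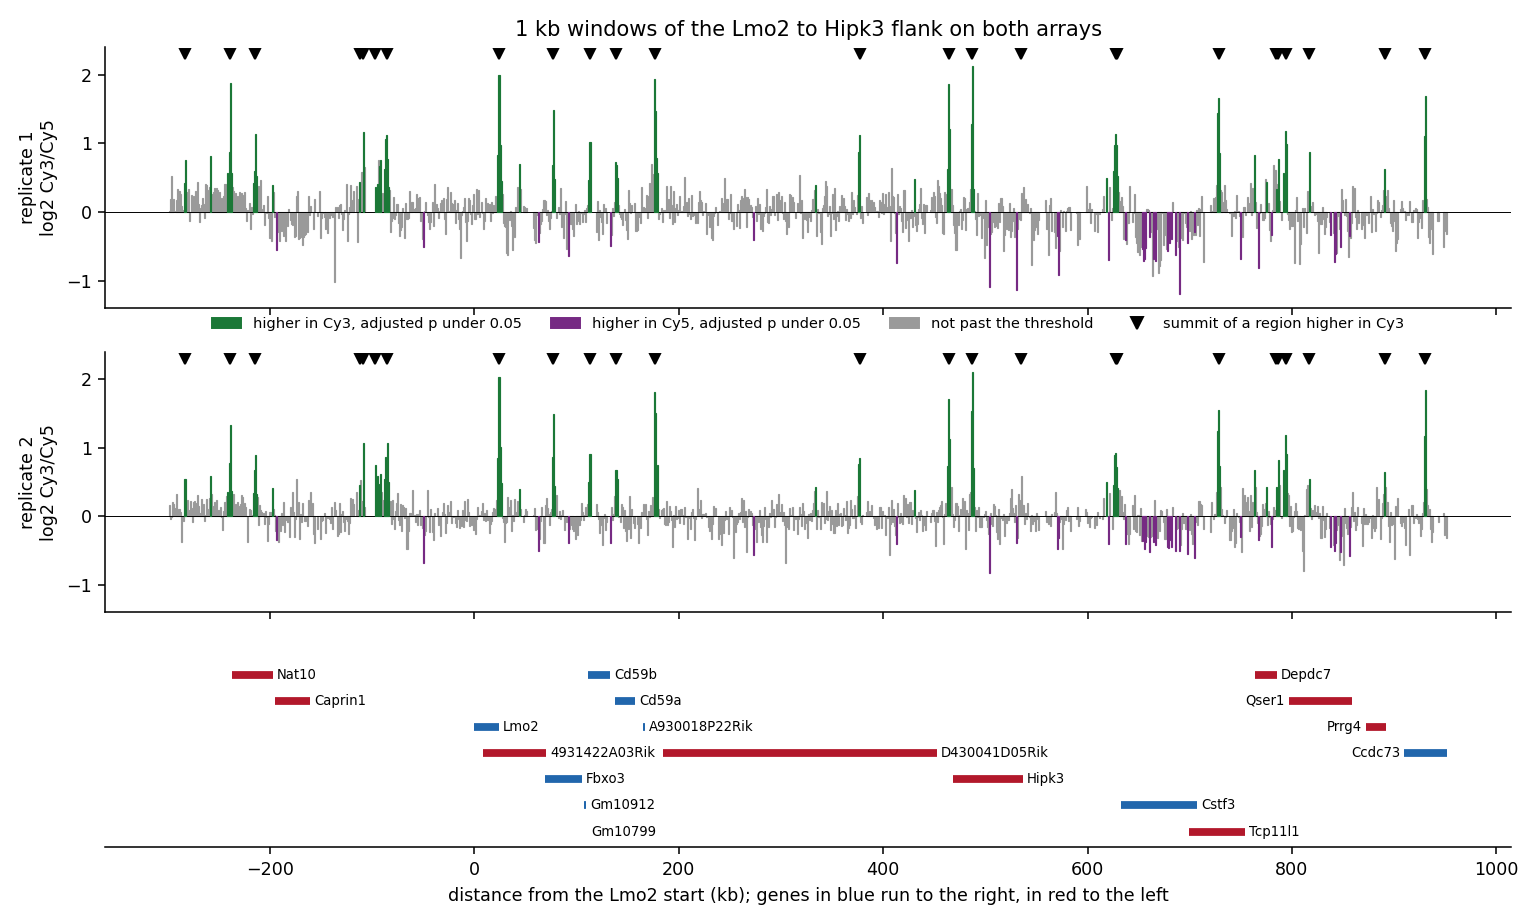
Log2 Cy3/Cy5 of each 1 kb window on replicate 1 (top) and replicate 2 (middle) against the distance in kb from the Lmo2 start, with the 18 protein-coding genes that start in the flank drawn to scale (bottom). Green bars are windows higher in Cy3 and purple bars windows higher in Cy5 (limma adjusted p under 0.05), grey bars passed neither, and triangles mark the summits of the 25 regions; the tall green bars stand at the same positions on both arrays, and purple bars gather in the body of Cstf3.

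The windows were then compared between the arrays. Between the arrays, Pearson's r was 0.72 across flank windows, Spearman's rho was 0.54, and the median SD of a window was 0.10. Windows of 1 chromosome are not independent and share their sequence composition on both arrays, so no p is attached. All 70 windows called on the Cy3 side were above 0 on each array, which their selection on these same arrays largely builds in. The median window of the flank was near the centre, at 0.0049 on replicate 1 and 0.0102 on replicate 2.

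**Figure D2:**
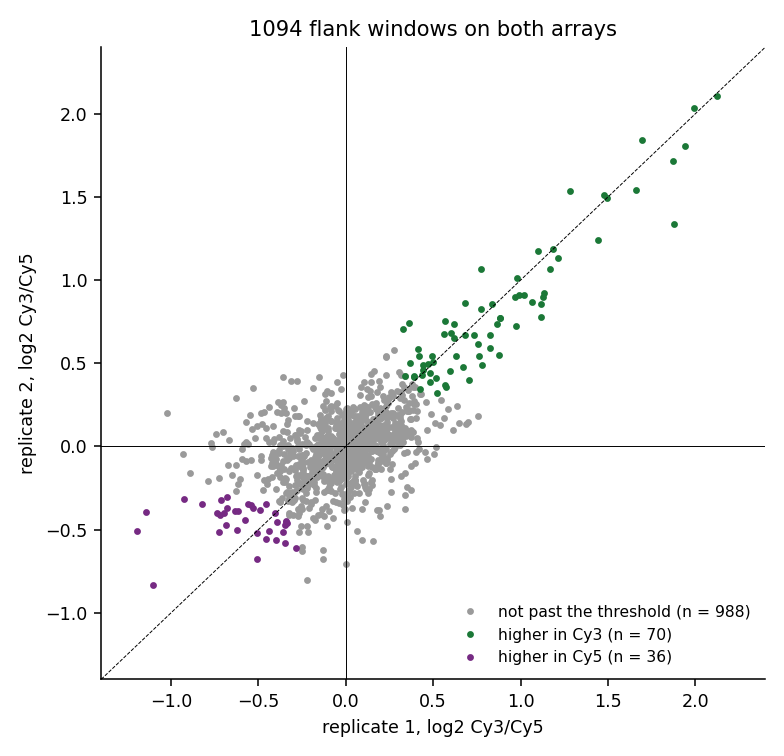
Log2 Cy3/Cy5 of 1094 flank windows on replicate 1 (x axis) against replicate 2 (y axis), with the diagonal dashed. The 70 windows higher in Cy3 (green) stretch along the diagonal to above 2 on both axes, while the 36 higher in Cy5 (purple) lie between -1.20 and 0 on both.

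The highest window lay in an intron of Hipk3, a homeodomain-interacting protein kinase, at chr2:104285000-104285999. It was at 2.13 on replicate 1 and 2.11 on replicate 2 (mean 2.12 ± 0.01, SD, n = 2), with a limma adjusted p of 8.46e-05. Next came the window just past Lmo2 at chr2:103822000-103822999, with 1.99 and 2.04. Lmo2 encodes a LIM-only protein that bridges transcription factors in blood cell precursors. The window at chr2:103974000-103974999 between A930018P22Rik and D430041D05Rik had 1.94 and 1.81, and its neighbour at chr2:103975000-103975999 had 1.48 and 1.51. Between D430041D05Rik and Hipk3, chr2:104262000-104262999 had 1.87 and 1.72. At all 5 of these windows the arrays differed by far less than the height of the window.

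The other 3 of the 8 highest windows lay near the ends of the flank or in Tcp11l1. The Ccdc73 intron window at chr2:104728000-104728999 had 1.69 and 1.84. In the Tcp11l1 intron, chr2:104526000-104526999 had 1.66 and 1.55. The widest spread among the highest 8 was at chr2:103559000-103559999, between Abtb2 and Nat10, with 1.88 on replicate 1 and 1.34 on replicate 2. All 8 windows had a limma adjusted p between 8.46e-05 and 0.000335, and each overlapped a region.

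The lowest windows were smaller in size and less alike between arrays. An intron window of Hipk3 at chr2:104302000-104302999 had -1.10 on replicate 1 and -0.83 on replicate 2 (limma adjusted p = 0.00158). An intron window of Cstf3 at chr2:104488000-104488999 had -1.20 and -0.51, and another of Hipk3 at chr2:104328000-104328999 had -1.14 and -0.39. In Qser1, chr2:104639000-104639999 had -0.73 and -0.51. On replicate 1 all 4 were lower than on replicate 2, and their GC content was between 27.5% and 35.8%. Apart from the first, each lost its call under several alternatives: normexp moved the other 3 to limma adjusted p of 0.0984 (Cstf3), 0.862 (Hipk3) and 0.0839 (Qser1).

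The next question was where in the flank the 25 regions higher in Cy3 lay. They were 180 to 2858 bp long (median 1140), and 56 windows, 5.12% of the flank, overlapped 1 of them, beside 3.20% of all tiled windows. Of the 70 windows called on the Cy3 side, 49 overlapped a region, with a median of 0.92, and the other 21 had a median of 0.52. By the annotation of coding and non-coding genes at the summit, 14 regions were intronic and 11 intergenic. In an exon or, counted apart, an untranslated region lay 0. Those places made up 65.5%, 24.7%, 5.85% and 3.93% of the flank windows. Called the same way on the opposite side, no region higher in Cy5 had its summit in the flank, and 4 did on the whole array. The procedure derives each threshold from the opposite tail, which gave 0.65 for Cy3 and 1.105 for Cy5, so the counts cannot be compared directly. With 0.65 on both sides the flank had 4 regions higher in Cy5.

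The regions were unevenly spaced. Neighbouring summits were a median of 38.4 kb apart. The shortest distance was 1.52 kb, between a pair upstream of Cstf3, and the longest 200.8 kb, across the 3′ part of D430041D05Rik. That gene spans 267 kb and had 1 region in its body, in an intron 74.9 kb from its start. In the interval between Caprin1 and Lmo2 lay 4 regions, 49.0 to 75.3 kb upstream of the Caprin1 start. Around the start of Depdc7, which encodes a DEP domain protein, a region 0.79 kb inside the gene and a region 1.49 kb upstream of it were 2.28 kb apart.

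Each array was also called alone, because the joint call has some overlap with each array built in. Of the 25 regions, 16 overlapped a call on both arrays, 5 a call on replicate 2 only, 0 a call on replicate 1 only and 4 neither. The running median needed 5 values, pooled over both arrays in the joint call but from 1 array here, which asks for more probes. The 4 that overlapped neither held 3 or 4 probes each, and how far this requirement decided their calls was not tested. Over the whole array 151 of 209 regions overlapped a call on both, and in the rest of the chromosome 2 segment 16 of 23. Regions called on replicate 1 alone numbered 17 in the flank, and all 17 overlapped a call of replicate 2. On replicate 2, which they had not been chosen on, their means were 0.64 to 2.15 (median 1.11), all above 0.50, the 95th percentile of flank windows on that array. In the other direction, replicate 2 alone gave 25 regions, of which 17 (68.0%) overlapped a call of replicate 1. Their means on replicate 1 were 0.30 to 1.76 (median 1.05), and 21 of 25 were above its 95th percentile of 0.57. The thresholds were 0.955 on replicate 1 and 0.679 on replicate 2, and their part in the difference in number was not tested.

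**Figure D3:**
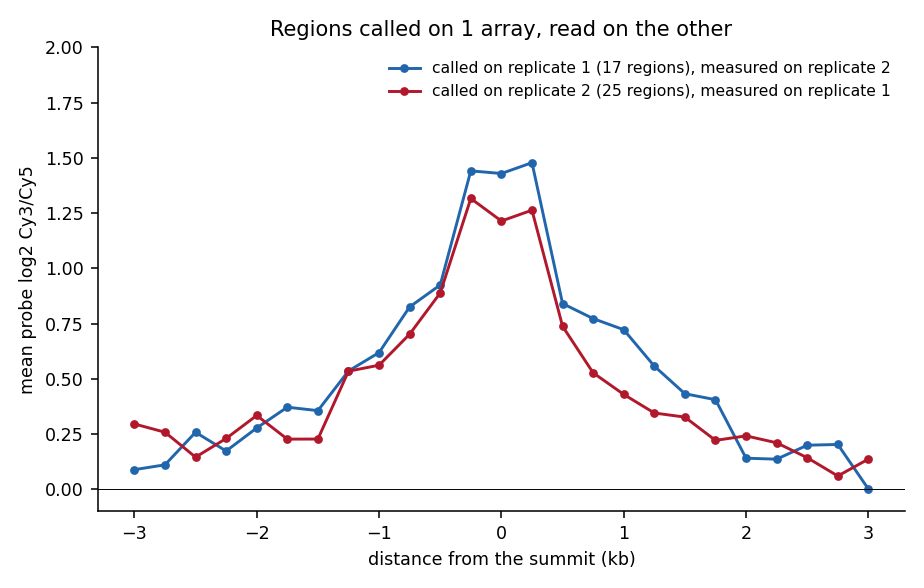
Mean probe log2 Cy3/Cy5 in bins of 0.25 kb against the distance in kb from the summit, for regions called on 1 array and measured on the array not used to call them. Both curves are highest within 0.25 kb of the summit, at 1.43 and 1.21 in the central bin, and are at most 0.41 from 1.75 kb on either side outward.

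The tallest region was in Hipk3 (chr2:104284128-104285507), with means of 1.74 on replicate 1 and 1.87 on replicate 2 (1.80 ± 0.09, SD, n = 2) and a highest running median of 2.37, the sixth highest of 209 regions on the array. It lies in an intron, 34.9 kb from the start of D430041D05Rik and further from that of Hipk3. The Ccdc73 region (chr2:104727222-104728978) had means of 1.61 and 1.67 and a highest running median of 2.22, and it stood 20.1 kb inside that gene of a coiled-coil protein. Both summits lay far from any start, and the replicates differed little beside their height.

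The region at the end of Lmo2 (chr2:103821246-103824103) was the longest, at 2858 bp, with means of 1.27 and 1.31. It began within Lmo2 and its summit fell past the end of that gene, 24.4 kb from the Lmo2 start, in an intron of 4931422A03Rik on the opposite strand. In Fbxo3, whose product is the substrate receptor of an SCF ubiquitin ligase, the region at chr2:103874880-103876487 had means of 1.36 and 1.33. Its summit was 7.09 kb inside the gene and 6.45 kb from the start of 4931422A03Rik, which runs the other way.

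Between D430041D05Rik and Hipk3, the region at chr2:104261825-104264214 had means of 1.62 and 1.49, and it lay 12.3 kb upstream of D430041D05Rik. With the Hipk3 region it framed the 3′ end of Hipk3, and their summits were 22.7 kb apart. The intergenic region at chr2:103973887-103976134 had means of 1.67 and 1.59 and was the last before the widest gap. The lone tall region without a core match, in Tcp11l1 (chr2:104525008-104527611), had means of 1.35 and 1.22.

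At the RNA-handling and BTB end of the flank, the region past Abtb2 (chr2:103558295-103559434) had means of 1.44 and 1.10, an SD of 0.24 that was among the wider ones. The region in Nat10, which encodes an RNA acetyltransferase, had means of 1.04 and 0.95 (chr2:103583574-103585133) and lay 17.4 kb inside the gene. In the interval between Caprin1 and Lmo2, chr2:103688851-103689870 had means of 1.15 and 0.97, and chr2:103711389-103713183 had means of 1.11 and 0.93. At each of these 4 the mean was higher on replicate 1, as it was at 17 of all 25 regions.

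Of the remaining regions called on both arrays alone, the one in D430041D05Rik (chr2:104173949-104175635) had means of 0.91 and 0.76. Upstream of Cstf3, which encodes a subunit of the cleavage stimulation factor for pre-mRNA, chr2:104424839-104426340 had means of 1.10 and 0.86, 5.10 kb from the start. Between Depdc7 and Qser1, chr2:104591787-104592662 had means of 0.99 and 0.88. All 3 were well below the Hipk3 region on each array. The sixteenth, in Qser1, had the lowest highest running median of this set, at 0.84. The 9 regions not called on both arrays alone had means from 0.55 to 1.11, and the widest disagreement of all 25 was among them, 0.36 on replicate 1 and 0.74 on replicate 2 at chr2:103701397-103701636 between Caprin1 and Lmo2.

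**Figure D4:**
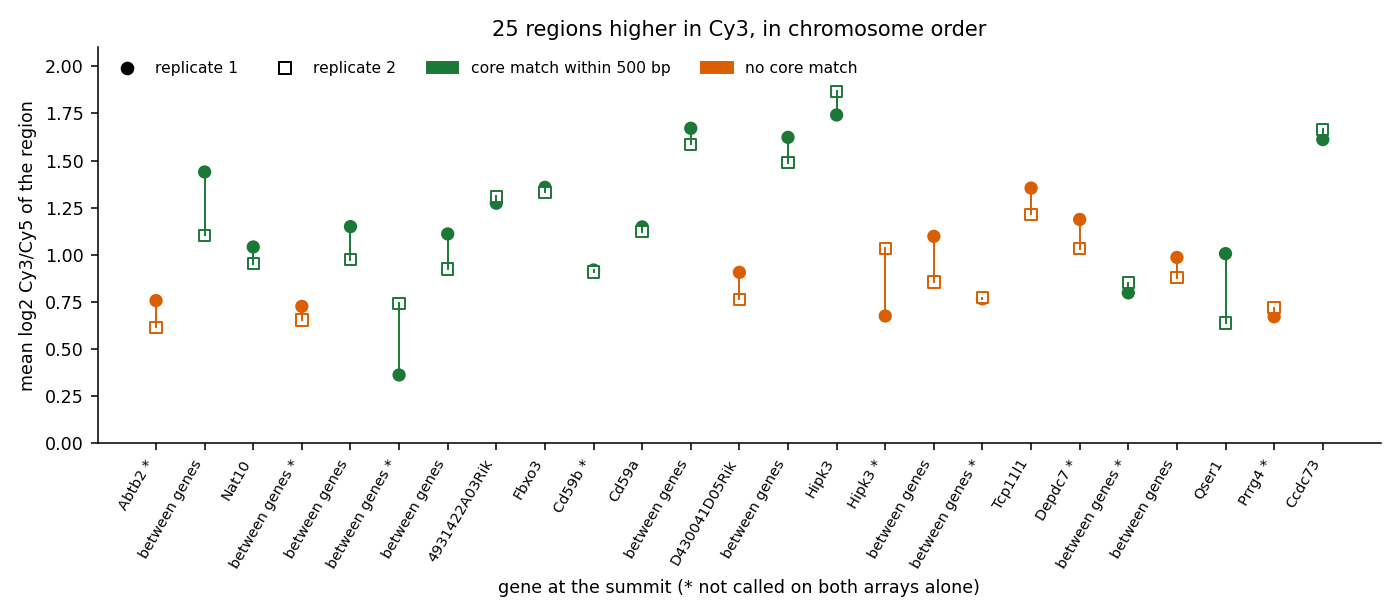
Mean log2 Cy3/Cy5 of each of the 25 regions on replicate 1 (filled circles) and replicate 2 (open squares), in chromosome order, named by the gene at the summit. Green regions have a CTCF core match within 500 bp and orange ones have none, and an asterisk marks the 9 not called on both arrays alone; the Hipk3 region is highest at 1.74 and 1.87.

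The sequences printed above raise the question of how often such regions hold the CTCF core. A match with at most 1 mismatch was within 500 bp of the summit in 15 of 25 regions, or 60% (exact binomial 95% interval 38.7 to 78.9%, for counting error only). On the whole array 134 of 209 regions had a match (64.1%), and in the rest of the chromosome 2 segment 18 of 23 (78.3%). Spans of the same length centred on every window held a match in 11.7% of the flank and 7.73% of the array. Of the 16 regions called on both arrays alone, 12 had a match, and of the other 9, 3 did. Of the 8 tallest regions, 7 had a match, and of the other 17, 8 did. With no mismatch allowed the share was 16.0%, against 0.64% of flank spans and 0.529% of all. The 4 regions with an exact match were those past Lmo2, between A930018P22Rik and D430041D05Rik, and in Cd59b and Cd59a. The Cd59 pair enters these counts as 2 regions although its printed stretches are the same.

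Regions with a core had a median mean of 1.14 and those without 0.85, and the ranges overlapped. The core lay within 250 bp of the summit in 12 of the 15 and within 50 bp in 4, among them 28 bp at both the Lmo2 and the A930018P22Rik regions. The best matches read on the plus strand in 8 regions and on the minus strand in 7. Taken along the chromosome, the 14 pairs of neighbouring core-holding regions were plus then minus in 3 cases, minus then plus in 4, both plus in 4 and both minus in 3. In 5 regions there were 2 matches, so the strand there is that of the best match only. A match is a string of letters and not a measured CTCF site.

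The Cd59 regions need their sequence beside them. The Cd59a region (chr2:103936546-103937265) had means of 1.15 on replicate 1 and 1.12 on replicate 2, and the Cd59b region (chr2:103910682-103911341) had 0.92 and 0.91. In each gene the summit lay close to the start, 1.10 kb inside Cd59a and 1.31 kb inside Cd59b. The 512 bp around the cores are 96.5% identical between the genes, with 18 edits. Probes in these regions differed from the other gene's sequence by a median of 2 bases, and 2 probes in each region occur at both genes. Signal from Cd59a and Cd59b therefore cannot be told apart at those probes, and what part cross-hybridisation has in either region was not tested.

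Gene starts were examined next, as cohesin is known from active promoters too. For each gene only the upstream end of its annotated span was taken as the start, and alternative starts inside a gene were not examined. The annotation places the starts of 18 protein-coding genes in the flank, and 17 of them fall in a window with enough probes (all but Ccdc73). Their means ran from -0.09 to 0.48 with a median of 0.11, far below the tall regions. Just 1 of the 17 passed the test on the Cy3 side and 0 on the Cy5 side, beside the 3.86% and 5.86% of all windows given above. Of the 25 region summits, 1 (4.00%), in Depdc7, lay within 1 kb of a start, as did the centres of 3.02% of flank windows. Within 5 kb of a start lay 7 summits (28.0%) and the centres of 13.4% of flank windows, given as a description with no test. Of these 7 regions only that in Cd59a was called on both arrays alone, and that in Cd59b shares its core sequence. The larger share near starts thus rests mainly on regions that were not called on both arrays alone.

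The start that passed was that of Cd59b, at 0.47 on replicate 1 and 0.49 on replicate 2 (0.48 ± 0.02, SD, n = 2; limma adjusted p = 0.0228). It shares the reservation about its paralog, and with the GC trend removed the adjusted p was 0.0523. Depdc7 came next at 0.40 and 0.26 (limma adjusted p = 0.0796). Cd59a had 0.14 and 0.30, and Prrg4, which encodes a transmembrane Gla protein, had 0.21 and 0.20. The start of Nat10 had 0.29 and 0.11, that of Fbxo3 0.16 and 0.16, that of Cstf3 0.16 and 0.10, and that of Hipk3 0.07 and 0.16. These 8 highest starts were above 0 on both arrays, although 7 of them did not pass.

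The lowest start was that of Lmo2, at -0.10 on replicate 1 and -0.09 on replicate 2 (limma adjusted p = 0.579), so the tall region by Lmo2 stood at its end and not at its start. Gm10912 had -0.03 and -0.06. The starts of D430041D05Rik (-0.15 and 0.07) and Qser1 (-0.16 and 0.13) differed in sign between the arrays. The start of Caprin1, an RNA-binding protein of stress granules, was among the other 5, whose means were between -0.01 and 0.11.

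**Figure D5:**
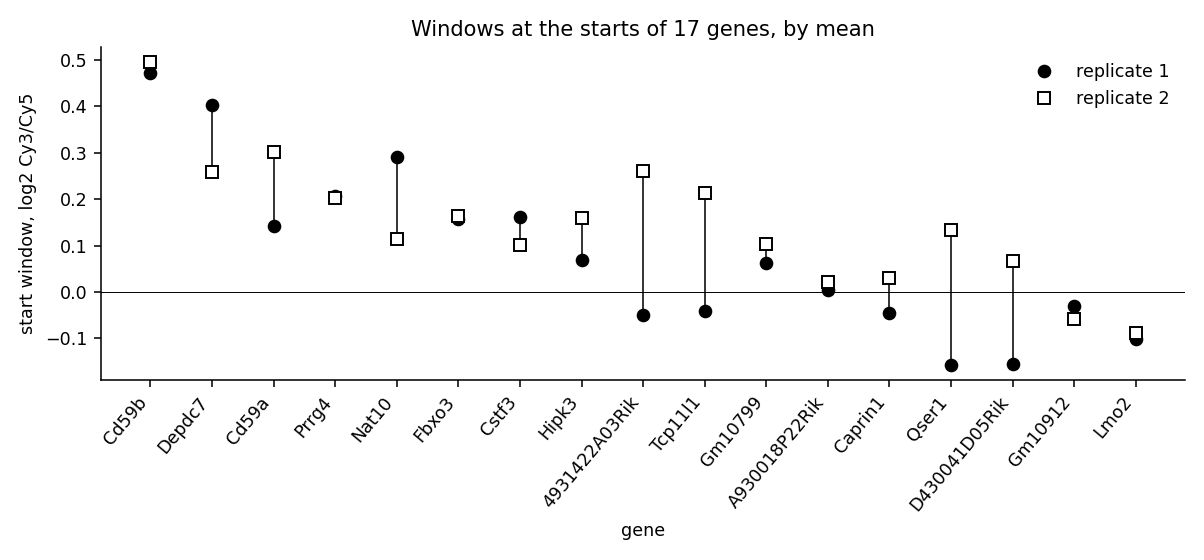
Log2 Cy3/Cy5 of the window that holds each of 17 gene starts, on replicate 1 (filled circles) and replicate 2 (open squares), ordered by the mean. Cd59b is highest at 0.47 and 0.49 and Lmo2 lowest at -0.10 and -0.09, and 4931422A03Rik, Tcp11l1, Caprin1, Qser1 and D430041D05Rik lie on opposite sides of 0 on the arrays.

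As a group the 17 start windows were higher than the other flank windows by 0.06 on replicate 1 and 0.12 on replicate 2 (0.09 ± 0.04, SD, n = 2). Start windows had a median GC content of 52.5% and the others 42.5%. With the GC trend removed the difference was 0.0052, and after loess and normexp it was 0.0068 and 0.0040. No p is attached, since 2 arrays cannot reach the threshold in a permutation test.

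Of the 36 windows higher in Cy5, 5 had their centre between genes. The 69 windows that overlap Cstf3 averaged -0.33 on replicate 1 and -0.19 on replicate 2 (-0.26 ± 0.09, SD, n = 2), the lowest of the 18 genes, and 16 of them were higher in Cy5 and 0 higher in Cy3. Qser1 followed with a body mean of -0.13 and 5 windows higher in Cy5 of 55, and Caprin1 with -0.12 and 1 of 35. Their median GC contents were 34.2% (Cstf3), 35.9% (Qser1) and 35.4% (Caprin1), the lowest of the 18. With the GC trend removed the Cstf3 mean was -0.09, after loess -0.09 and after normexp -0.06, and the flank as a whole then had 3, 5 and 7 windows higher in Cy5. These bodies were singled out after their values were seen.

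On the Cy3 side, Nat10 had the highest body mean, at 0.18 on replicate 1 and 0.14 on replicate 2, with 5 of 39 windows called. Lmo2 followed at 0.17 and 0.13, with 2 of 24. Those 2 were the last windows of Lmo2, under the tall region at its end. The last, with 1.99 and 2.04, lay mostly past the gene. The Lmo2 mean thus rests largely on its end and does not describe its whole body. Median GC contents were 48.6% (Nat10) and 46.2% (Lmo2), and these means were not tested with the GC trend removed. The body of Hipk3 held the tallest region and the lowest window of the flank, and averaged -0.08 and 0.06, with 3 windows called on the Cy3 side and 2 on the Cy5 side of 67. D430041D05Rik, the longest gene, averaged 0.04 and -0.02, and of its 250 windows 4 were higher in Cy3 and 2 higher in Cy5.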

How the data were processed

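Rad21 ChIP and input DNA from RAG cells were hybridised to 2 custom Agilent tiling arrays. The intensities deposited by the authors are processed signals of Feature Extraction 10.5.1.1, after spatially detrended background subtraction and 1 linear dye factor for each channel. The files as deposited also carry other columns, 0 or 1 quality marks for each spot. The log2 values deposited by the authors were made with Ringo, with parameters not given in the sources used here. The rows of that table carry numbers and no probe names. They were matched to probes sorted by number as text, from the fourth on. Dropping 2 or 4 probes in place of 3 gave r of 0.749 and 0.747 on replicate 1. These deposited columns are smoothed, their medians are -0.00664 and -0.00592, and they served as an alternative.

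The log2 of processed Cy3 over Cy5 intensity was centred on each array's median, without loess or quantile steps. Control spots and 27 outlier spots were dropped, and repeated probes were averaged. Windows were fixed at 1000 bp with at least 3 probes. limma 3.58.1 (R 4.3.3) tested the mean of the 2 arrays against 0 over all 14947 windows, two-sided, with Benjamini-Hochberg adjustment at 0.05. The p-values rest on the spread between 2 flasks, with the variance of each window moderated by limma towards a value fitted over all windows. At the highest window the SD between the arrays was 0.015 and the moderated standard error 0.098. The region procedure was of the Ringo type. Probe ratios of both arrays were smoothed by the running median of 5 or more values up to 400 bp away. Values below the mode, mirrored at it, gave the null, and its 0.99 quantile gave the threshold. A region needed 3 positions above it, and positions closer than 600 bp were joined. The fits were tested on simulated data. Sequence and genes are from mm9 (NCBIM37, GENCODE release M1), the build of the probe positions per the file headers. Scripts ran on scipy 1.17.1, pandas 2.3.3, numpy 2.4.6 and Python 3.11.15.

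The interval, gene groups and tests were chosen with earlier results of these data known. Named genes are the 8 highest and 4 lowest start windows plus Lmo2 and Hipk3. Named regions are the 15 tallest of those called on both arrays alone, named windows the 8 highest and 4 lowest past the threshold, and printed cores those of the 8 tallest such regions with a match plus 2 without. The Cd59 stretches were added after the values were seen. Alternatives covered background correction, normalization, centring, probe filters, a GC trend, window and region settings, the deposited values and leaving out each array.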

Additional observations from a re-analysis of the deposited data

How the results depend on the processing

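No paired analysis was possible because both samples form a single group. The window test has no value with 1 array left out, since no residual degree of freedom remains. The count of 70 windows higher in Cy3 stayed within 1.5 times under all 12 alternatives run. Counts at other window sizes have other totals, 96 of 1785 with 500 bp windows and 63 of 595 with 2 kb windows. The 36 higher in Cy5 became 84 with mode centring (shifts of -0.115 and -0.045), 7 with normexp, 3 with the GC trend removed, 4 with the deposited values, 5 with loess or with probes well above background and 0 with a trended robust prior, where 94 had an unadjusted p under 0.05. The 25 regions higher in Cy3 became 40 with normexp or the GC trend removed and 42 with loess, and were 17 to 25 in number with a single array. The 16 found on both arrays alone became 25 with the GC trend removed. The 0 regions higher in Cy5 became 1 with mode centring and 4 with the Cy3 threshold, and stayed at 0 with either array alone. The share of regions with a core, 60%, was 16% with no mismatch and lay between 68% and 82.4% on the arrays alone. The flank median of -0.0009 became 0.0335 with normexp, 0.0374 with loess, -0.0809 with mode centring, 0.0220 with only probes well above background, -0.0101 without saturated probes, 0.0290 with the GC trend removed and 0.0264 with the deposited values, and was 0.0049 to 0.0102 on the arrays alone. The start difference of 0.0897 became 0.0040 with normexp, 0.0068 with loess, 0.0052 with the GC trend removed and 0.0469 with the deposited values, and was 0.0621 to 0.117 on the arrays alone. The replicates' r stayed within 0.05 of 0.722. Of the named windows, 11 comparisons lost the call, all on the Cy5 side. No called value changed sign. The causes were not tested. With 2 arrays, their number limits the precision of every value.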
